A study of Mus musculus with 12 samples.

Results

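The genes described here encode the enzymes of aerobic energy production in the mitochondrion. They comprise 58 nuclear genes, of which 18 encode subunits named for complex I, 4 encode complex II, 6 encode complex III, 1 encodes cytochrome c, 9 encode complex IV, 11 encode complex V (ATP synthase) and 9 encode enzymes of the tricarboxylic acid cycle or pyruvate dehydrogenase. The rule takes genes by symbol and uses no measured value. Each symbol was matched through the RefSeq accession of an array probe, and a gene with several probes was represented by its brightest one. All 58 had a probe and all were tested, among 19019 genes or accessions tested in all. Every member was well above background on all 12 arrays.

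RNA came from primary hepatocytes of C57BL/6 mice, cultured in medium with serum, 100 nM dexamethasone and 100 nM insulin. The mice were PGC-1alpha+/+ or PGC-1alpha-/-, with 3 mice of each genotype, and hepatocytes of each mouse were given adenovirus at a multiplicity of infection of 5 and harvested 24 h later. The virus encoded either a control shRNA (shC) or the shRNA that the labels name shTLS. The 4 groups are therefore +/+ control, +/+ shTLS, -/- control and -/- shTLS, with 3 arrays each, and both arrays of a mouse carry the same number. All groups, the controls included, had an adenovirus. Mouse age, the part of Ppargc1a that is deleted, the cells in which it is deleted and the share of infected cells are not given in the sources used here. The numbers 1, 2 and 3 each stand for 1 slide that holds 1 array of every group, and a group always lies at the same place on its slide, so group and slide position cannot be told apart. Values are log2 of the quantile-normalized Cy3 signal.

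Electrons from NADH enter the respiratory chain at complex I and those from succinate at complex II. They pass by ubiquinone to complex III, by cytochrome c to complex IV and there to oxygen, while protons pumped on the way drive ATP synthase. The tricarboxylic acid cycle, fed with acetyl-CoA by pyruvate dehydrogenase, makes the NADH and succinate. Most subunits are nuclear-encoded, and PGC-1alpha is a coactivator known for raising their transcription together with the factors NRF1, GABP (also called NRF2) and the estrogen-related receptors (ERR). In liver it is induced by fasting and also acts on gluconeogenesis.

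Promoters are shown because several of these factors bind short, known letters close to the start of such genes. RefSeq promoters (assembly GRCm38.p6, 250 bases before to 50 bases after the start) were matched for 46 of the 58 members; Ndufa2, Ndufb9, Ndufs1, Sdhc, Uqcrc2, Uqcrb, Uqcrq, Cyc1, Cox4i1, Cox6c, Atp5a1 and Idh3a had no entry. The letters GCGCATGC of the NRF1 motif, on either strand, were in a promoter of 6 members, or 13.0% of those matched, and in 3.05% of the 27025 genes with a promoter. The share was 23.9% (11 members) against 9.93% for CCGGAAG (GABP), 26.1% (12 members) against 10.2% for ATGGCG (YY1), 8.70% (4 members) against 5.38% for AAGGTCA (ERR), and for GGGCGG (SP1) it was 23 of the 46 against 38.2%. The 27025 genes were not matched to the members in base composition or expression, and the shares were not tested. A match of letters is a description of the sequence and does not show that a factor binds there. The following lines give the 250 bases before the start, 5′ to 3′ on the gene's strand, with the letters of any of these 5 motifs on either strand in capitals. Motif counts also cover the 50 bases after the start, which are not printed. Cycs (cytochrome c) and Sdhb each hold an NRF1 motif, and in Cox6a1 the motif of one strand overlaps that of the other. Atp5g3 holds an ERR motif, and Ndufv2 is shown because it had the lowest shTLS difference of complex I and has SP1 letters only.
Cycs (chr6:50566570-50566819, minus strand): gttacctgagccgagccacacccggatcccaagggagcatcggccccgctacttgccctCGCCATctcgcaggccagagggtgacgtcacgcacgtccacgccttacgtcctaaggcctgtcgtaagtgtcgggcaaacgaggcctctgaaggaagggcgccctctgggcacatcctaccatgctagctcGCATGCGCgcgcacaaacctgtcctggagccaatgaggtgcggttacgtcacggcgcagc
Cox6a1 (chr5:115348959-115349208, minus strand): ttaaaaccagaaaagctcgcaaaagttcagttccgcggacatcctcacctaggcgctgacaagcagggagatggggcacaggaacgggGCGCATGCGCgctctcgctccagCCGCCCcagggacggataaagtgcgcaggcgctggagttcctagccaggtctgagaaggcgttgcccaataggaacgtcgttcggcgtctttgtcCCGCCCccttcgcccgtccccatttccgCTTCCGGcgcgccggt
Sdhb (chr4:140961021-140961270, plus strand): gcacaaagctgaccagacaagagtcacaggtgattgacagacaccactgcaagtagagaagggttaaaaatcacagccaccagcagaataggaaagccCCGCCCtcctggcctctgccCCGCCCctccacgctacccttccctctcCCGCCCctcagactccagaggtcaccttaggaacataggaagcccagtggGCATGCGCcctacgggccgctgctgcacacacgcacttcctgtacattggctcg
Atp5g3 (chr2:73911327-73911576, minus strand): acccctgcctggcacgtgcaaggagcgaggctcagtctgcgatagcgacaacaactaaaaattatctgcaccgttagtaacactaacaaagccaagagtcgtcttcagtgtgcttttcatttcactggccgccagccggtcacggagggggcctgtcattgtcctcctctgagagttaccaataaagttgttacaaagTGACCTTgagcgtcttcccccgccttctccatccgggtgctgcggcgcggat
Ndufv2 (chr17:66101560-66101809, minus strand): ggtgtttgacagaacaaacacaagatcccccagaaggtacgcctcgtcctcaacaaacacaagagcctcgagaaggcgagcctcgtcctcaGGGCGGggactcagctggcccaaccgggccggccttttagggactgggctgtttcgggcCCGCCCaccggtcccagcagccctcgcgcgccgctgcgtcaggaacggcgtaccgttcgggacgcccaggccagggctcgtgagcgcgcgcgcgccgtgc

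The Ppargc1a probe read 9.03, 10.39 and 8.23 in +/+ control, 8.56, 10.99 and 8.42 in +/+ shTLS, 9.71, 9.40 and 9.04 in -/- control and 8.84, 8.91 and 8.67 in -/- shTLS cultures. The groups of both genotypes overlapped, with a difference over both vectors of -0.18 (SE 0.52), and as the deleted part is not given, this probe does not check the genotype. Of 15 hepatocyte markers 13 had a probe, all above background on all 12 arrays, with a median shTLS difference of -0.62 and 2 called lower, where 3.11% of all genes were. Between 22706 and 26680 of the 41174 probes had a signal well over background on an array.

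The first question is how these transcripts differed between shTLS and control cultures. In the deposited, quantile-normalized data the members had small differences, most of them below 0, and no member passed the test of groups without a block. With arrays paired by the replicate number or by mouse, 2 and 3 members passed (Sdhc and Ndufv2, and with the mouse also Ndufb3). Of all genes 29.0% and 32.8% passed in these fits. Over both genotypes 46 of 58 members were negative with a median log2 difference of -0.13, while the median of all genes tested was -0.015. Scaling to the 75th percentile of each array turned the members' median to 0.025, with 25 negative, and scaling to spike-in controls gave -0.89, with all 58 negative. Members ranged from -0.75 for Sdhc to 0.17 for Cox5b, and under 75th percentile scaling from -0.69 for Sdhc to 0.73 for Cox6a1. Among the 18 complex I genes the lowest was Ndufv2 at -0.53. The 9 genes of the tricarboxylic acid cycle and pyruvate dehydrogenase were all negative, with a median of -0.25, and 7 of them were negative under 75th percentile scaling.

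Statements on single mice and arrays below are for the quantile-normalized values. By limma's moderated test with Benjamini-Hochberg adjustment over all genes, called under 0.05, 0 of 58 members were called over both genotypes, where 8.27% of all genes were (5.15% higher and 3.11% lower). The smallest adjusted p of a member was 0.0567, for Sdhc, and 3 members had an unadjusted p under 0.05 against 28.1% of all genes. The counts called were also 0 in +/+ cells alone, where 1.2% of all genes were called, and 0 in -/- cells alone, where 0.994% were. In each of these 1 member, Sdhc, had an unadjusted p under 0.05, against 16.5% and 12.2% of all genes. No member had a difference beyond 1 in either direction over both genotypes, and 16.0% of all genes did. The 95% interval of the difference, from the fit without a block, lay within 1 of 0 for 54 of 58 members and for 43.5% of all genes. The members were brighter, with a median log2 level of 14.2 against 8.73 over all genes. Their residual SD was smaller, with a median of 0.237 against 0.515. Shares of all genes, here and below, are therefore not from genes of like level or spread.

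**Figure D1:**
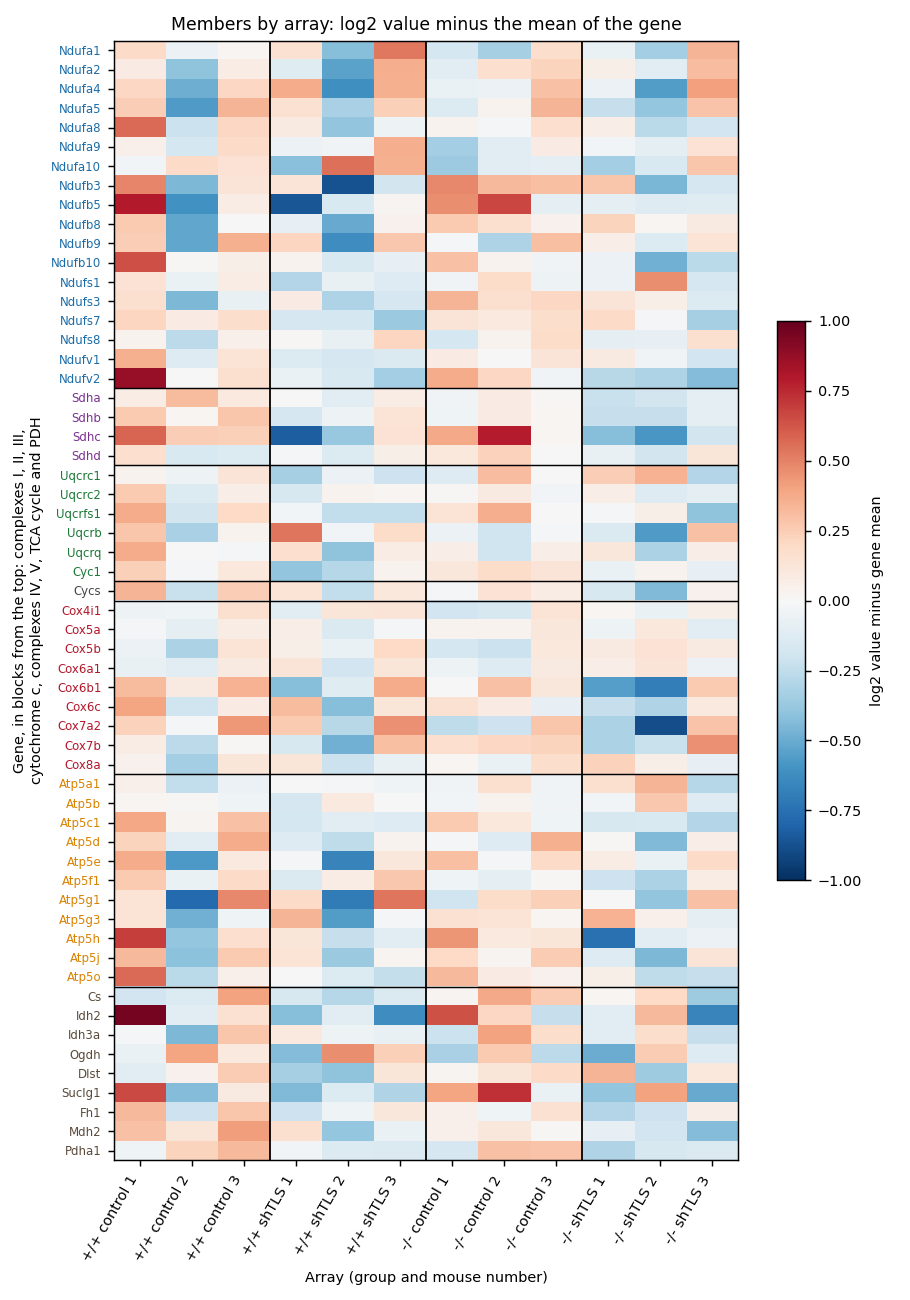
Log2 value of each of the 58 members (vertical axis, ordered by complex) on each of the 12 arrays (horizontal axis, by group and mouse number), minus the mean of that gene over all arrays; red is above and blue below that mean. The median over the members was 0.23 on the first +/+ control array, -0.15 on the second and -0.17 on the second +/+ shTLS array. It was -0.024 on the first +/+ shTLS array and 0.091 on the second -/- control array. Over the members, deviations from group means of same-numbered arrays correlated by 0.232 to 0.491 within a genotype (same mouse and slide). Across genotypes (same slide only) they correlated by 0.182 to 0.732.

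Complex I takes electrons from NADH. Its members had a median shTLS difference of -0.086 over both genotypes, 14 of 18 negative, which 75th percentile scaling turned to 0.025, with 8 negative. Ndufv2, an iron-sulfur subunit of the NADH-binding part, read 12.73, 11.85 and 12.02 in +/+ control, 11.79, 11.70 and 11.51 in +/+ shTLS, 12.23, 12.07 and 11.82 in -/- control and 11.58, 11.55 and 11.42 in -/- shTLS cultures. All 6 shTLS arrays were below all 6 control arrays, and within mice the differences were -0.94, -0.15 and -0.50 in the +/+ mice and -0.65, -0.52 and -0.40 in the -/- mice. Over both genotypes the difference was -0.53 (SE 0.19, limma adjusted p = 0.103), and it stayed negative at -0.47 under 75th percentile scaling. With the replicate number as a block, the adjusted p was 0.0278, and with the mouse as a block 0.0321, so Ndufv2 is called in both of these fits.

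Ndufv1, the flavin subunit that binds NADH beside Ndufv2, read 14.13 ± 0.24 in +/+ control, 13.86 ± 0.016 in +/+ shTLS, 14.08 ± 0.068 in -/- control and 13.96 ± 0.14 in -/- shTLS cultures (mean ± SD, n = 3 arrays each). Its difference of -0.19 had a 95% interval of -0.53 to 0.14, and the control and shTLS arrays did not overlap in +/+ mice but did in -/- mice. For Ndufs1, a large iron-sulfur subunit, the difference was -0.085 (interval -0.45 to 0.28). Ndufa9, an accessory subunit near the ubiquinone site, had the highest difference of the complex at 0.097 (interval -0.27 to 0.46), which became -0.68 with the spike-ins. Ndufb3, an accessory subunit of the membrane arm named after its values were seen, read 14.04, 13.11 and 13.69 in +/+ control, 13.69, 12.69 and 13.37 in +/+ shTLS, 14.04, 13.88 and 13.86 in -/- control and 13.83, 13.10 and 13.39 in -/- shTLS cultures. Its within-mouse differences were all negative, at -0.35, -0.42 and -0.31 in the +/+ mice and -0.21, -0.78 and -0.47 in the -/- mice, and the arrays of both vectors overlapped in +/+ but not in -/- mice. The fit without a block gave -0.42 (adjusted p = 0.267), the replicate block gave 0.0602 and the mouse block 0.0434. Ndufa4 is kept here by its name, although it is now known as a subunit of complex IV; its difference was -0.033.

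Complex II, which oxidizes succinate and belongs to both the chain and the cycle, had 4 of 4 members negative in the deposited data and 3 of 4 under 75th percentile scaling. Sdhc, one of its membrane anchors, read 12.27, 11.94 and 11.93 in +/+ control, 10.86, 11.31 and 11.83 in +/+ shTLS, 12.07, 12.47 and 11.71 in -/- control and 11.26, 11.11 and 11.51 in -/- shTLS cultures. In +/+ and in -/- mice alike every shTLS array was below every control array of its genotype, and over all 12 arrays the groups overlapped through the third +/+ mouse with shTLS, at 11.83, and the third -/- mouse with the control, at 11.71. The within-mouse differences were -1.41, -0.62 and -0.096 in the +/+ mice and -0.81, -1.36 and -0.20 in the -/- mice. They were smallest in the third mouse of each genotype. Over both genotypes the difference was -0.75 (SE 0.21, 95% interval -1.22 to -0.28), or a signal 1.68-fold lower, and the adjusted p was 0.0567. It was 0.0299 with the replicate block, 0.0416 with the mouse block and 0.0427 without the third -/- control array, all under 0.05. The difference was -0.69 under 75th percentile scaling and -1.60 with the spike-ins.

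The other anchor, Sdhd, had a difference of -0.073 (interval -0.40 to 0.26), the highest of the complex, which was 0.078 under 75th percentile scaling. Sdha, the flavoprotein that holds the catalytic site, read 11.43 ± 0.13 in +/+ control, 11.26 ± 0.090 in +/+ shTLS, 11.29 ± 0.058 in -/- control and 11.10 ± 0.064 in -/- shTLS cultures. Sdhb, its iron-sulfur partner, read 13.29 ± 0.15 in +/+ control, 13.08 ± 0.15 in +/+ shTLS, 13.13 ± 0.062 in -/- control and 12.92 ± 0.081 in -/- shTLS cultures. Both were below the control in all 6 mice, with differences of -0.18 (interval -0.49 to 0.13) and -0.21 (interval -0.53 to 0.11), and neither passed the test.

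Complex III had a median difference of -0.099, with 5 of 6 negative, and 0.064 under 75th percentile scaling, with 2 negative. Uqcrfs1, the Rieske iron-sulfur protein, had the lowest difference at -0.29 (interval -0.67 to 0.085) and was lower with shTLS in all 6 mice. Cyc1, cytochrome c1, was likewise negative in all 6, at -0.25 (interval -0.58 to 0.075). The core protein Uqcrc1 read 14.64 ± 0.088 in +/+ control, 14.40 ± 0.14 in +/+ shTLS, 14.66 ± 0.23 in -/- control and 14.70 ± 0.35 in -/- shTLS cultures, a difference of -0.10 that was 0.055 under 75th percentile scaling. The small subunit Uqcrb had the highest value at 0.091 (interval -0.35 to 0.53), which was -0.71 with the spike-ins. Cycs, the mobile carrier between complexes III and IV, read 15.69, 15.12 and 15.59 in +/+ control, 15.48, 15.10 and 15.45 in +/+ shTLS, 15.33, 15.49 and 15.42 in -/- control and 15.19, 14.90 and 15.39 in -/- shTLS cultures. Its control and shTLS arrays overlapped in both genotypes although each mouse was lower with shTLS (-0.21, -0.019 and -0.14 in the +/+ mice and -0.14, -0.59 and -0.035 in the -/- mice). The difference of -0.19 (SE 0.17, limma adjusted p = 0.502) was 0.072 under 75th percentile scaling, and both dimmer probes of Cycs gave 0.12 and 0.11.

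Complex IV reduces oxygen, with a catalytic core from mitochondrial DNA that is not among these genes. Its members had the median closest to 0 of the complexes, -0.051, with 5 of 9 negative, and this median was 0.23 under 75th percentile scaling and -0.68 with the spike-ins. Cox5a, a subunit of the matrix side, read 16.28, 16.20 and 16.37 in +/+ control, 16.36, 16.15 and 16.27 in +/+ shTLS, 16.33, 16.33 and 16.41 in -/- control and 16.24, 16.40 and 16.18 in -/- shTLS cultures. These 12 values lay within 0.26 of each other, and the difference was -0.051 (interval -0.36 to 0.26), or 0.37 under 75th percentile scaling. Cox4i1, the widely expressed form of a regulatory subunit, had a difference of 0.051 (interval -0.28 to 0.38), which was 0.47 under 75th percentile scaling and -0.44 with the spike-ins. Cox6a1, another small subunit, named after its values were seen, was the brightest member, with a mean log2 level of 17.4. Its difference was 0.065 (interval -0.26 to 0.39), but 0.73 (limma adjusted p = 0.0563) under 75th percentile scaling and -0.18 with the spike-ins. Whether the change between scalings goes with the level was not tested. Cox5b was the highest at 0.17 (interval -0.17 to 0.51), higher with shTLS in 5 of 6 mice, but -0.51 with the spike-ins. Cox6b1, at the face where the complexes pair, was the lowest at -0.39 (interval -0.86 to 0.090), with values of 10.72 ± 0.14 in +/+ control, 10.41 ± 0.40 in +/+ shTLS, 10.60 ± 0.15 in -/- control and 10.14 ± 0.51 in -/- shTLS cultures.

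ATP synthase had a median difference of -0.13, 8 of 11 negative, which was 0.078 with 3 negative under 75th percentile scaling. Atp5b, the catalytic beta subunit, read 17.11, 17.09 and 17.04 in +/+ control, 16.92, 17.18 and 17.09 in +/+ shTLS, 17.05, 17.11 and 17.05 in -/- control and 17.05, 17.35 and 16.96 in -/- shTLS cultures. The groups overlapped throughout, with a difference of 0.015 (SE 0.15, interval -0.31 to 0.34). It was 0.63 (limma adjusted p = 0.079) under 75th percentile scaling and -0.28 with the spike-ins. Its partner alpha subunit, Atp5a1, had 0.051 (interval -0.31 to 0.41), the highest of the complex, and 0.45 and -0.46 under the same scalings. Atp5c1, the gamma subunit that turns inside the catalytic head, is named after its values were seen. It read 16.44, 16.08 and 16.35 in +/+ control, 15.88, 15.94 and 15.92 in +/+ shTLS, 16.31, 16.16 and 16.01 in -/- control and 15.89, 15.90 and 15.76 in -/- shTLS cultures. All shTLS arrays were below all control arrays, as for Ndufv2 and no other member; 2.1% of all genes had groups apart in this direction, and 4.01% in the other, which no member showed. Atp5c1 differed by -0.34 (SE 0.15, adjusted p = 0.162; 0.0061 under 75th percentile scaling).

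The lowest value of the complex was that of Atp5h, a subunit of the stalk that holds the head still, at -0.38 (interval -0.86 to 0.11); its other probe gave -0.18. Atp5g1 and Atp5g3 encode the same mature protein of the rotating ring, and their differences were -0.023 (interval -0.65 to 0.60) and 0.030 (interval -0.41 to 0.47). The second +/+ mouse stood low for Atp5g1, at 12.30 with the control and 12.39 with shTLS, while the other +/+ arrays lay between 13.22 and 13.61.

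Among the enzymes of the cycle, Idh2, which makes NADPH from isocitrate in the mitochondrion, had the lowest difference. Its values were 10.83, 9.76 and 10.03 in +/+ control, 9.46, 9.76 and 9.26 in +/+ shTLS, 10.51, 10.09 and 9.64 in -/- control and 9.77, 10.20 and 9.21 in -/- shTLS cultures. Arrays of 1 group spread widely, the first +/+ control array being the highest of all 12, and the groups overlapped. The difference was -0.53 (SE 0.26, adjusted p = 0.207), negative in 4 of 6 mice; it was -0.71 in +/+ and -0.35 in -/- cells, and the difference between these was 0.36 (interval -0.79 to 1.51). Mdh2, the malate dehydrogenase of the cycle, was lower with shTLS in all 6 mice, at -0.13, -0.51 and -0.48 in the +/+ mice and -0.13, -0.30 and -0.44 in the -/- mice. Its difference was -0.33 (SE 0.16, adjusted p = 0.204) in the quantile-normalized data and 0.26 under 75th percentile scaling.

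Pdha1, the catalytic subunit of pyruvate dehydrogenase, read 13.25 ± 0.19 in +/+ control, 12.98 ± 0.065 in +/+ shTLS, 13.21 ± 0.26 in -/- control and 12.88 ± 0.085 in -/- shTLS cultures. It differed by -0.30 (interval -0.65 to 0.046), and its second probe gave -0.37. Citrate synthase, Cs, the first step of the cycle, had -0.25 (interval -0.64 to 0.15), but a dimmer probe of the same gene gave 0.010. For the NAD-linked isocitrate dehydrogenase subunit Idh3a the difference was -0.062 (interval -0.48 to 0.35), or 0.015 under 75th percentile scaling. Ogdh, the first subunit of oxoglutarate dehydrogenase, was the highest of these enzymes at -0.033 (interval -0.52 to 0.46).

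**Figure D2:**
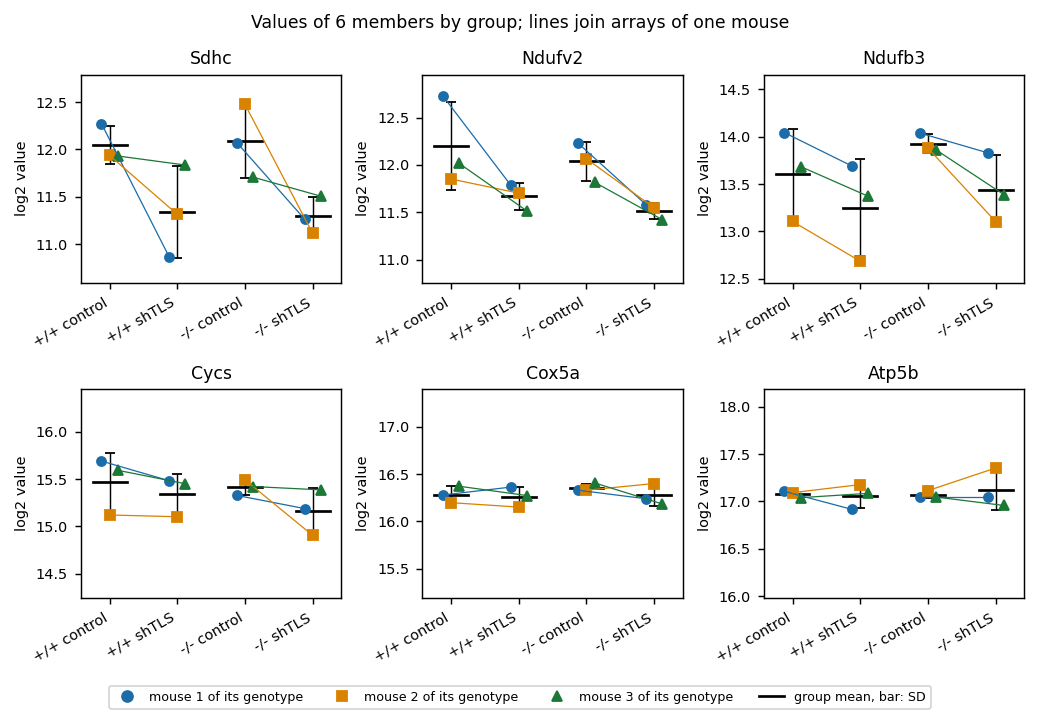
Log2 values of Sdhc, Ndufv2, Ndufb3, Cycs, Cox5a and Atp5b (vertical axes) in the 4 groups (horizontal axes); points are arrays, thin lines join both arrays of a mouse, thick bars are group means and error bars the SD of 3 arrays. For Sdhc and Ndufv2 every line falls from control to shTLS, while for Cox5a and Atp5b lines go both ways. Values are quantile-normalized; the mean differences of Sdhc and Ndufv2 stayed negative under 75th percentile scaling, and that of Cycs turned positive (0.072).

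Within mice, the median difference over the 58 members was -0.21, -0.042 and -0.094 in the +/+ mice and -0.089, -0.22 and -0.11 in the -/- mice, all negative in the quantile-normalized data. Under 75th percentile scaling 21 of the 46 members with a negative difference over both genotypes turned positive. Over all genes the same medians were 0.024, 0.024 and -0.046 and 0.023, -0.030 and -0.039. Single members were less uniform. The difference was negative in all 6 mice for 11 of 58 members, close to the 18.9% of all genes with that pattern, and positive in all 6 for 0 members, where 19.4% of all genes were. Of the 11, 3 belong to complex I, 3 to complex II, 2 to complex III, and the rest are Cycs, Atp5c1 and Mdh2. Arrays of the 3 mice did not overlap between vectors for 7 members in +/+ cells, all lower with shTLS, where 9.26% of all genes were lower without overlap and 10.9% higher. In -/- cells the count was 12 members, all lower, against 8.85% of all genes lower and 10.5% higher.

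With the replicate number as a block, 2 members were called lower with shTLS over both genotypes, Ndufv2 and Sdhc, where 13.7% of all genes were called lower and 15.3% higher. With the mouse as a block there were 3, Ndufb3 being added, where 16% of all genes were lower and 16.8% higher. The residual SD had a median of 0.237 over members and 0.515 over all genes, and the range over 12 arrays ran from 0.26 for Cox5a to 1.65 for Ndufb5.

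**Figure D3:**
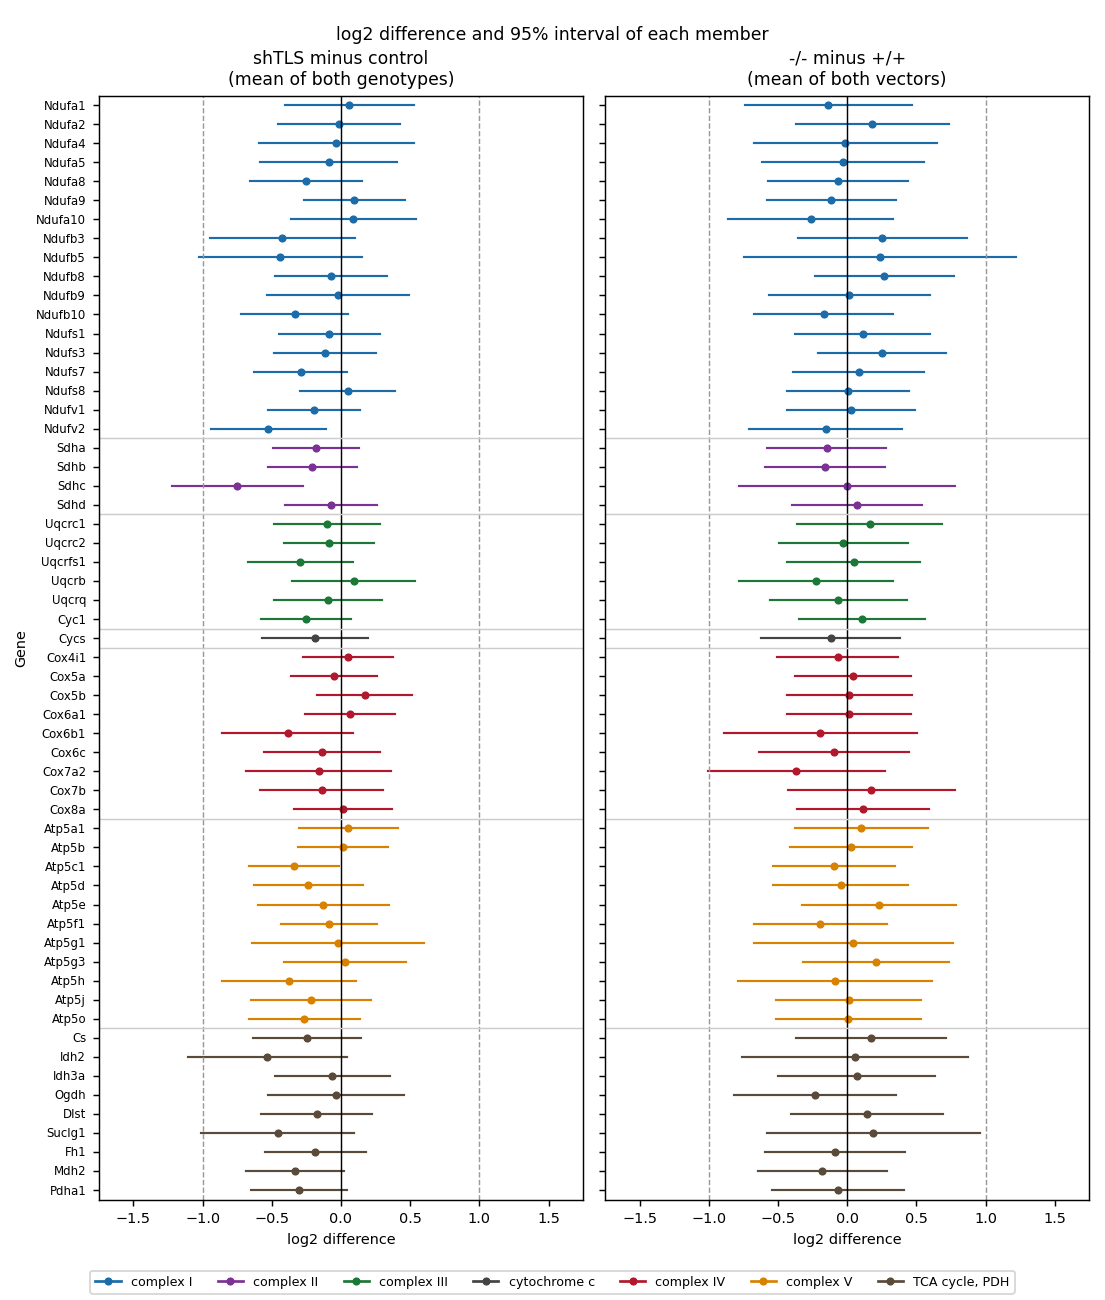
Log2 difference (horizontal axes, point) and its 95% interval (line) for each of the 58 members (vertical axis, by complex), for shTLS minus control on the left and -/- minus +/+ on the right; dashed lines mark -1 and 1. On the left 46 points are below 0 in the quantile-normalized data, and 25 would be under 75th percentile scaling; on the right 27 are, and 37 would be.

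The second question is whether cells labelled PGC-1alpha-/- had lower levels of these transcripts, PGC-1alpha being a coactivator of this gene program. No member passed the test, and the members' differences lay on both sides of 0. Over both vectors 27 of 58 were negative in -/- relative to +/+ cells, with a median of 0.010 against 0.023 for all genes, and under 75th percentile scaling 37 were negative with a median of -0.052. Members ranged from -0.37 (Cox7a2) to 0.27 (Ndufb8). No member was called, where 0.116% of all genes were, and no member had an unadjusted p under 0.05, where 2.76% of all genes did. This comparison and that of shTLS with control use the same 12 arrays. Counts called were also 0 with the control shRNA, where 0.0894% of all genes were called, and 0 with shTLS, where 0.0841% were; unadjusted p was under 0.05 for 0 members in both, against 3.29% and 2.12% of all genes. The 95% interval lay within 1 of 0 for 56 of 58 members, the exceptions being Ndufb5 (-0.74 to 1.22) and Cox7a2 (-1.005 to 0.27). Smaller differences in either direction are inside these intervals, and a missed test does not show equal levels.

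By complex the median genotype difference over both vectors was 0.012 for complex I, -0.076 for II, 0.0085 for III, 0.014 for IV, 0.011 for V and 0.055 for the cycle and pyruvate dehydrogenase. In complex I the ends were Ndufb8, a membrane-arm subunit, at 0.27 (interval -0.23 to 0.77), and Ndufa10, an accessory subunit, at -0.26 (interval -0.86 to 0.33). Ndufs1 had 0.11 and Ndufv1 0.027. In complex II the values were -0.15 for Sdha, -0.16 for Sdhb, the lowest, 0.068 for Sdhd, the highest, and -0.0029 for Sdhc. In complex III they ran from Uqcrb at -0.23 to Uqcrc1 at 0.16, with Uqcrfs1 at 0.046 and Cyc1 at 0.11.

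Cytochrome c, a gene widely used as a readout of PGC-1alpha activity, had a Cycs difference of -0.12 (SE 0.23, interval -0.62 to 0.38). The 3 Cycs probes were all negative, the dimmer ones at -0.18 and -0.21. In complex IV, Cox5a had 0.042 (interval -0.38 to 0.46) and Cox4i1 -0.070, between the ends Cox7a2, a small subunit, and Cox7b at 0.17. Cox7a2 read 14.15 ± 0.22 in +/+ control, 14.08 ± 0.38 in +/+ shTLS, 13.88 ± 0.29 in -/- control and 13.63 ± 0.58 in -/- shTLS cultures. In complex V the ends were Atp5f1, the b subunit of the stalk, at -0.19 and Atp5e, the epsilon subunit, at 0.23, with Atp5b at 0.026 (interval -0.41 to 0.46) and Atp5a1 at 0.10. Both genes of the ring were positive, Atp5g1 at 0.045 and Atp5g3 at 0.21. Of the enzymes, Suclg1, a subunit of succinyl-CoA ligase, was the highest at 0.19 and Ogdh the lowest at -0.23, with Cs at 0.17, Idh2 at 0.055, Idh3a at 0.068, Mdh2 at -0.18 and Pdha1 at -0.067.

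Slides did not order the genotypes alike. With the control shRNA, the median member difference between the -/- and the +/+ array of a slide was -0.24, 0.22 and -0.048 on the slides of mice 1, 2 and 3, and with shTLS it was -0.0065, 0.10 and -0.085. The sign turned with the slide for both vectors. Groups did not overlap for 4 members with the control shRNA, 2 higher in -/- cells (Ndufs3 and Cox7b) and 2 lower (Ndufa10 and Mdh2), against 3.35% and 3.75% of all genes. With shTLS there was 1, Pdha1, lower, against 2.56% of all genes, and 0 higher, against 2.7%. None of the 58 was apart over both vectors in either direction, where 0.337% of all genes were in each.

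Markers of other liver cells were read on the same arrays. The summed linear signal of 12 macrophage and Kupffer cell markers ranged from 6868 to 17360 in +/+ control and from 12550 to 88820 in -/- control cultures, and from 5502 to 11630 and 8522 to 30460 with shTLS. The shTLS medians were -1.10 for these markers, 0.076 for endothelial, -0.26 for stellate and -0.80 for bile duct cell markers. No gene of these 4 lists was called in either comparison, where 8.27% of all genes were for shTLS and 0.116% for genotype. The median genotype difference of the macrophage markers was 2.06 over the 11 tested, that of endothelial markers 0.84, of stellate 0.81 and of bile duct cell markers -0.37. Of the macrophage markers 8 of 12 were above background on all 12 arrays, with none below background on all. Their part in the members' values was not tested, and in such bulk RNA fewer cells of a type and less RNA per cell cannot be told apart. Hepatocyte markers had a median genotype difference of -0.21.

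The third question is whether the shTLS difference depended on the PGC-1alpha genotype. The difference between both shTLS differences (-/- minus +/+) was called for 0 of 58 members, as for 0% of all genes, and unadjusted p was under 0.05 for 0 members and 0.263% of all genes. Its median over the members was -0.0056, 29 of 58 being negative. Single values ran from -0.29 to 0.36, and only 39 members had a 95% interval within 1 of 0. Sdhc had -0.71 in +/+ and -0.79 in -/- cells, and Ndufv2 -0.53 and -0.52. The intervals of the difference between genotypes were -1.03 to 0.87 for Sdhc and -0.82 to 0.84 for Ndufv2. The groups behind these values share no array, but same-numbered arrays of both genotypes share a slide.

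The sign of the members' median shTLS difference depended on how the arrays were put on one scale. The unscaled 75th percentile signal of the arrays was lower with shTLS in every mouse (343.5 to 634.6 against 810.4 to 1064). Quantile normalization gives all arrays the same distribution. With 7 spike-in control probes as the scale instead, the median of all genes was -0.82 for shTLS over both genotypes and that of the members -0.89, and 53 of 58 members were called lower, where 52.1% of all genes were. That count was 24 in +/+ cells, against 22.4% of all genes lower, and 2 in -/- cells (Sdhc and Cox6b1), against 0.868%. With the 75th percentile as the scale the all-gene median was 0.090 and 0 members were called, where 10.6% of all genes were. Members minus all genes, the medians differed by -0.12 with quantile normalization, -0.065 with the 75th percentile and -0.065 with the spike-ins. For genotype over both vectors the members' median was 0.049 with the spike-ins, where that of all genes was 0.13.

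**Figure D4:**
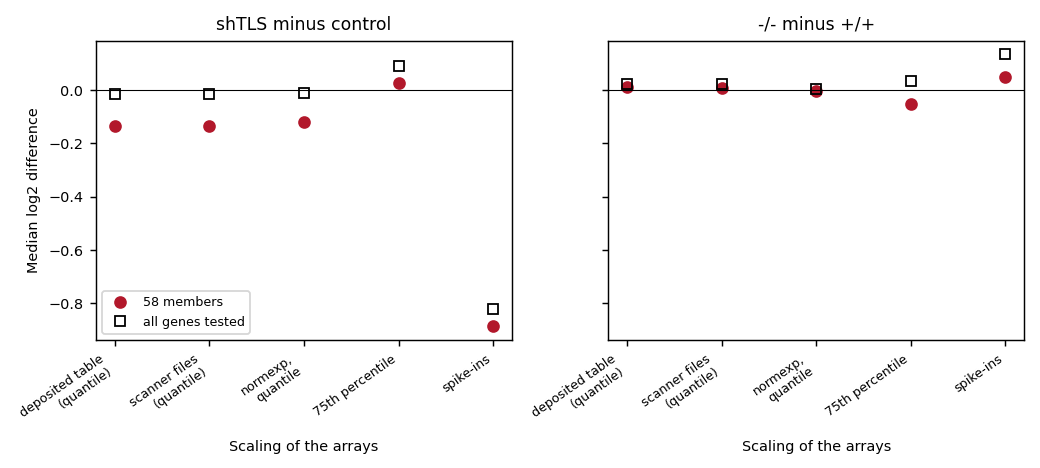
Median log2 difference (vertical axis) over the 58 members (filled circles) and over all 19019 genes tested (open squares) under 5 ways of scaling the arrays (horizontal axis), for shTLS minus control on the left and -/- minus +/+ on the right. The members' shTLS median is -0.13 in the deposited table, 0.025 with the 75th percentile and -0.89 with the spike-ins, and it lies below that of all genes each time.

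Other genes of the same machinery were measured on the same arrays. Of 18 further complex I subunits tested, 0 were called for shTLS over both genotypes, where 5.15% of all genes were higher and 3.11% lower; their median was -0.25, with 15 negative. Of 15 further subunits of complexes III to V, 1, Atp5k, was called lower, where 3.11% of all genes were. Cox8b also passed, but for the reason given below its call is not set against a share. Atp5k, a subunit of the ATP synthase membrane part, read 12.34, 11.63 and 12.14 in +/+ control, 11.40, 10.73 and 11.43 in +/+ shTLS, 11.77, 12.31 and 12.01 in -/- control and 11.31, 10.46 and 11.19 in -/- shTLS cultures. All shTLS arrays were below all controls, with a difference of -0.95 (SE 0.23, adjusted p = 0.0329), but the call was lost without each of 8 of the 12 arrays in turn, with adjusted p from 0.0541 to 0.0870. Cox8b, the heart and muscle form of a complex IV subunit, read 1.45, 1.56 and 4.13 in +/+ control, 5.12, 7.41 and 7.14 in +/+ shTLS, 2.56, 3.15 and 3.83 in -/- control and 5.52, 7.66 and 7.60 in -/- shTLS cultures. It was above background on 2 of 6 control arrays and on all 6 shTLS arrays, with 1 of 3 in each control group. It passed the filter on dim probes only through its shTLS arrays, so its call had to favour shTLS and no difference or test is given for it. The liver form Cox8a, a member, differed by 0.014 (interval -0.34 to 0.37).

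No call for shTLS over both genotypes, where 8.27% of all genes were called, was made in 3 further lists. These were 12 further enzymes of the cycle and of pyruvate use, 5 pyruvate dehydrogenase kinases and phosphatases and 29 assembly factors. Pdk4, the kinase that shuts pyruvate dehydrogenase off in fasting, had 1.27 (SE 0.37, adjusted p = 0.0597); it is named after its values were seen, and the median of its list was -0.22. Of 13 coactivators and transcription factors, 3 rose with shTLS, where 5.15% of all genes were called higher. They were Esrrg, an estrogen-related receptor, at 0.94 (SE 0.20, adjusted p = 0.0206), Gabpb1, a subunit of GABP, at 0.96 (SE 0.24, adjusted p = 0.0371), and Tfb2m, a mitochondrial transcription factor, at 1.18 (SE 0.32, adjusted p = 0.0484). With the replicate block, which called 15.3% of all genes higher, all 3 were called at adjusted p = 0.00866, 0.00284 and 0.0026. With the mouse block, which called 16.8% of all genes higher, they were called at 0.0162, 0.00224 and 0.00293. With the spike-ins their differences were 0.25, 0.069 and 0.31 and none was called. Tfb2m was not called, at a like difference, under 75th percentile scaling (1.22, adjusted p = 0.0523), with normexp background (1.14, 0.0519), without the filter on dim probes (1.18, 0.0818) and with the mean of its probes (1.12, 0.0666). Gabpb1 was not called without the filter (0.96, 0.052) and with the mean of its probes (0.60, 0.146), nor Esrrg with normexp background (0.34, 0.0685). Without a block, the calls of Esrrg, Gabpb1 and Tfb2m were lost without 4, 7 and 9 of the 12 arrays in turn. Nrf1 had -0.50 and Esrra 0.032, both named after their values were seen and neither past the test (adjusted p = 0.156 and 0.938). For genotype over both vectors, 0 genes of any of these lists were called, where 0.116% of all genes were.

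Members whose promoter holds the NRF1 letters printed above (Ndufa8, Sdhb, Uqcrc1, Cycs, Cox6a1 and Ogdh) had shTLS differences from -0.25 to 0.065 with a median of -0.14, and the 40 matched members without them a median of -0.18. Their genotype differences ran from -0.23 to 0.16, with a median of -0.094 against 0.013. For the GABP letters the shTLS medians were -0.13 with and -0.19 without, and the genotype medians 0.014 with and -0.013 without. For the ERR letters, held by 4 members, the shTLS medians were -0.053 with and -0.19 without, and the genotype medians 0.14 and 0.0087. For the YY1 letters they were -0.069 with and -0.18 without for shTLS, and -0.0095 and 0.012 for genotype. For the SP1 letters they were -0.13 and -0.24 for shTLS, and -0.030 and 0.016 for genotype. Ogdh has 6 promoters and was counted where any of them held the letters. These medians describe the members and were not tested. Both sides of each comparison were negative for shTLS in the quantile-normalized data.

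Of the 58 members 45 had 1 probe, and 13 had several tested probes. In 3 of these 13, Cycs, Cs and Atp5b, probes differed in the sign of the shTLS difference, and in 4 in that of the genotype difference. The shTLS differences in +/+ and in -/- cells share no array, but same-numbered arrays of both genotypes share a slide. Across the 58 members both differences had a correlation of 0.752, with 47 of 58 of the same sign. Over all 19019 genes it was 0.879. This is a correlation across genes of the same arrays, and genes are not independent replicates.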

How the data were processed

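Total RNA of 12 cultures was labelled with Cy3 and hybridized to 1-colour Agilent whole mouse genome arrays, read with Feature Extraction 10.1.1.1 per the submitters' processing notes. Main values are the deposited log2 table, which the authors made by setting signals under 1 to 1 and quantile normalization, per the series' design text; every column has the median 5.30, and its values correlated with log2 scanner signals by at least 0.998. The deposited scanner files give linear intensity values per spot (processed, median and background) and other columns of flags set to 0 or 1, per the file headers, and served for detection and alternatives. The submitters' processing notes also name limma, without a version.

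Of 41174 probes 24375 were named through RefSeq accessions (GRCm38.p6, names only, the array files naming another build) and 16799 were not. Tested were 24965 probes that the scanner marked as well above background on every array of some group, with the brightest probe for each of 19019 genes or accessions, 12796 of them named. Atp5f1 is listed there as Atp5pb. Limma 3.58.1 in R 4.3.3 (statmod 1.5.0) fitted 4 group means over the 12 arrays, leaving 8 residual degrees of freedom, with Benjamini-Hochberg adjustment over all genes and calls under 0.05. On simulated arrays with independent noise the fit returned planted differences on average. That simulation held no likeness between arrays of a mouse or slide, so it does not show how calls behave with such arrays. For genotype over both vectors, arrays of 1 mouse were treated as a random block, with a correlation of 0.582. An exact test of 3 against 3 arrays cannot go below p = 0.1, and the number of arrays limits the precision.

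Members, gene lists and motifs were chosen with earlier results of these data known. Genes named are 20 fixed subunits and enzymes, every member called, and the highest and lowest of each complex in both averaged comparisons; other genes named, among them Atp5k, Esrrg, Gabpb1, Tfb2m, Pdk4, Nrf1 and Esrra, were chosen after their values were seen. The labels state that same-numbered arrays of a genotype come from 1 mouse. Deviations from group means correlated by 0.458 to 0.671 between them and by at most 0.0959 between different numbers. Deviations within a group cancel out, so positive values for same numbers lower those for different numbers, which are no separate check of the pairing. Same-numbered arrays of different genotypes, which share a slide but no mouse, correlated by 0.233 to 0.642; over the members alone the ranges were 0.232 to 0.491 within and 0.182 to 0.732 across genotypes. The level of the gene that shTLS targets is not reported here. Alternatives were scanner-file values, normexp (offset 50, on median signals, as the files used here hold no mean signal), 75th percentile and spike-in scaling, 2 filters on dim probes, the mean of a gene's probes, only the groups compared, 2 blocks and each array left out.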

Additional observations from a re-analysis of the deposited data

How the results depend on the processing

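Under 75th percentile scaling the members' median shTLS difference was 0.104 in +/+ cells, -0.038 in -/- cells and 0.025 over both, and the median genotype difference with shTLS was -0.114. With spike-in scaling the shTLS medians were -0.854, -0.903 and -0.886 in the same order. Members called, all lower, were 24, 2 and 53, where 22.4%, 0.868% and 52.1% of all genes were called lower. Over both genotypes the differences of Ndufa9 (-0.68), Uqcrb (-0.71), Cox5b (-0.51), Ndufa10 (-0.74), Ndufa1 (-0.66), Ndufs8 (-0.85) and Cox8a (-0.68) turned negative with a call. Those of Cox4i1, Cox6a1, Atp5a1, Atp5b and Atp5g3 did so without one. The spike-ins shift all genes together, the median of all genes being -0.82 over both genotypes. Pairing arrays by the replicate number as a block called 2 members over both genotypes and the mouse as a fixed block 3, where no block called 0. Of all genes these fits called 29.0%, 32.8% and 8.27% in the same order. With each array left out in turn, the shTLS medians ranged from -0.274 to -0.013 in +/+ cells, from -0.180 to -0.0998 in -/- cells and from -0.201 to -0.093 over both, and members called over both ranged from 0 to 1 (Sdhc, without the third -/- control array, when 10.2% of all genes were called). The lowest and highest medians in +/+ cells came without its second and first control arrays. No setting but the spike-ins, the blocks and this left-out array called a member in any comparison. Genotype medians with each array left out ranged from -0.129 to 0.068 with the control shRNA, from -0.068 to 0.052 with shTLS and from -0.037 to 0.034 over both, and that of the difference between the shTLS effects from -0.085 to 0.116. The alternatives were also compared for the genes of the naming rule, the targeted genes and the further-list genes called for shTLS in the main fit. Of their 1762 values, 1688 kept their side of the threshold and direction where called, 38 lost a call, 32 gained one and 4 reversed, and 86 that were not called changed sign. A member called only under an alternative was not added for that, so Ndufb3 is not among them. The shTLS intervals given above come from the fit without a block, which leaves out the pairing of arrays by mouse. Ndufb3 was not called in that fit but was with the mouse block, so these intervals do not mark the smallest difference that can be seen. With 3 arrays in a group, a difference that was not called may still exist.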
